A study of Mus musculus with 15 samples.

Results

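The genes of the mitochondrial respiratory chain were described in sorted mouse microglia after deletion of Tgfbr2, the type II receptor of TGFβ. They were taken by name, as every gene whose single symbol begins with Nduf, Sdh, Uqcr, Atp5, Cox4, Cox5, Cox6, Cox7 or Cox8, without the symbols marked as pseudogenes. This gave 93 of the 30884 genes on the array, of which 36 are subunits of complex I, 4 of complex II, 8 of complex III, 11 of complex IV and 14 of complex V. A further 12 are assembly or accessory factors and 8 are isoforms known from other tissues or conditions. The choice of genes reads only the symbols and uses no measured value, though it was made with earlier results of these data known. Where a gene had several transcript clusters (the array's probe sets for a transcript), the one with the highest mean signal stood for it. Measured values thus chose the cluster but not the gene.

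The arrays were Affymetrix Mouse Gene 2.0 ST, 1 array per mouse, and the values are log2 RMA signals, in which a difference of 1 is a 2-fold difference. All mice were C57BL/6 with floxed Tgfbr2 alleles and the R26-yfp reporter. The Cre/+ TAM group (n = 6) carried Cx3cr1CreERT2 and received tamoxifen, which removes exons 2 and 3 of Tgfbr2. The wt TAM group (n = 6) lacked Cre and received tamoxifen, and the Cre/+ OIL group (n = 3) carried Cre and received oil. Injections of 8 mg tamoxifen were given at 6 to 8 weeks of age, 48 h apart, and microglia were sorted 4 weeks later. Cx3cr1CreERT2 is active in microglia and also in other macrophages. The labels give the same CD11b+/CD45low gate for all groups, while the study's text also describes a YFP+ gate for Cre/+ TAM.

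The respiratory chain moves electrons from NADH (complex I) and succinate (complex II) through ubiquinone, complex III, cytochrome c and complex IV to oxygen, and the proton gradient built on the way drives ATP synthesis by complex V. The genes studied here lie in the nucleus, and the few subunits encoded by mitochondrial DNA were not analysed here. Resting microglia are known to draw on oxidative phosphorylation, and activated microglia and macrophages are known to shift towards glycolysis in many settings.

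Microglial markers were high in every array. The mean log2 signal of 9 microglial genes, P2ry12, Tmem119 and Sall1 among them, lay between 9.99 and 10.5 in Cre/+ TAM, 10.1 and 10.5 in wt TAM and 10.2 and 10.5 in Cre/+ OIL. The mean of 10 markers of border-associated macrophages, Mrc1, Pf4 and Ms4a7 among them, ran from 4.46 to 6.69 in Cre/+ TAM, 3.91 to 4.13 in wt TAM and 3.85 to 4.03 in Cre/+ OIL, so that every Cre/+ TAM mouse was above all others, with the highest values in mice 1 (6.69) and 2 (5.31). The named genes differed most, with Ms4a7 at 6.86 ± 1.83 in Cre/+ TAM and 3.59 ± 0.45 in wt TAM (SD, n = 6 each), whereas Lyve1, at 4.75 ± 0.20 in Cre/+ TAM and 4.76 ± 0.23 in wt TAM, and Cd209f differed little. Only 3 of the 10 had a mean signal above 4.84, a background guide described below. The mean of 8 neutrophil markers was 5.59 in wt TAM mouse 2 and 6.11 in Cre/+ OIL mouse 3, against 3.25 to 3.96 in the other 13 arrays. The study lists Mrc1, Pf4 and Ms4a7 among the genes raised in Tgfbr2-deficient microglia. Whether these marker signals come from microglia or from other cells was not tested. Nor was the part of any such cells in the values below tested. In such bulk samples, fewer cells of a type and less RNA per cell cannot be told apart. Tgfbr2 itself ranged from 7.91 to 8.36 in Cre/+ TAM, from 7.91 to 8.26 in wt TAM and from 7.94 to 8.49 in Cre/+ OIL. Its probes span the whole transcript, and no probe was tied to the floxed exons, so the loss of those exons cannot be read from it. The titles of wt TAM mouse 3 and Cre/+ OIL mice 1 and 2 hold the unexplained word neg. Each array is a mouse of its own, so p-values weigh a group difference against the spread between mice.

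The first question was whether the respiratory chain genes differed between Cre/+ TAM and its littermates without Cre. Cre sits in the Cx3cr1 gene, so a lower Cx3cr1 dose and the Tgfbr2 deletion cannot be told apart in this comparison. Cx3cr1 averaged 11.2 in Cre/+ TAM, 11.6 in wt TAM and 11.4 in Cre/+ OIL. None of the 93 genes passed the test. The median log2 fold change of the members was 0.0064 in Cre/+ TAM against wt TAM, beside -0.017 over all 32471 tested clusters, and single genes lay between -0.31 (Cox8b) and 0.41 (Atp5g2). Of the members, 49 were above 0 and 44 below. At a limma adjusted p under 0.05, 0 of 93 members were called, beside 0.0246% of all clusters, and the lowest adjusted p of a member was 0.836. At an unadjusted p under 0.05, 2 members were higher, beside 2.92% of all clusters, and 1 was lower, beside 2.91%. No member had all its Cre/+ TAM values above or all below those of wt TAM, beside 0.317% and 0.148% of all clusters. The 95% confidence intervals of all 93 genes lay within a 2-fold change in either direction, and those of 79 lay within 0.5 on the log2 scale. The median standard error of a member was 0.13. Without Cre/+ TAM mice 1 and 2, chosen after the data were seen, the median was 0.02 and no member passed.

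**Figure D1:**
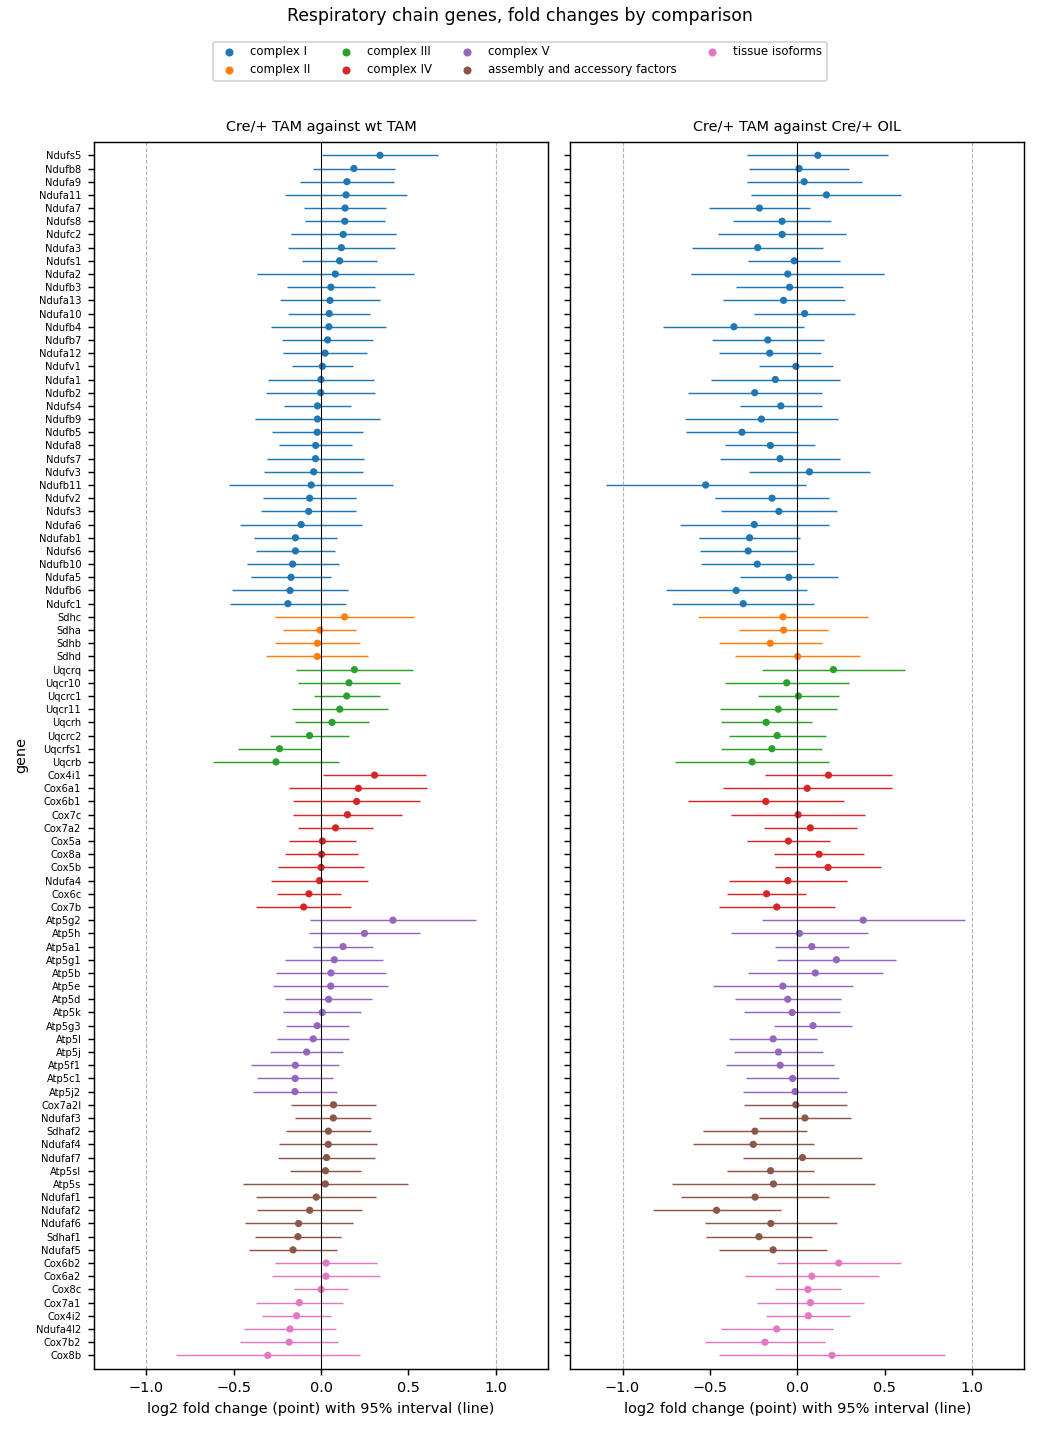
Log2 fold change (horizontal axis) of 92 of the 93 respiratory chain genes (rows, coloured by complex) in Cre/+ TAM against wt TAM (left) and against Cre/+ OIL (right), with limma's 95% interval as a line and a 2-fold change as dashed lines. Against wt TAM all the intervals drawn lie between the dashed lines, while against Cre/+ OIL the interval of Ndufb11, a complex I subunit named after its values were seen, reaches -1.10.

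By complex, the medians lay close to 0. The median log2 fold change was 0.0034 for complex I, -0.01 for complex II, 0.08 for complex III, 0.0077 for complex IV, 0.02 for complex V and 0.02 for the assembly and accessory factors. The 8 tissue isoforms had a median of -0.13, with 3 above 0 and 5 below.

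Complex I oxidises NADH. Its subunit Ndufs5, a small accessory subunit of the membrane arm, had a log2 signal of 6.14 (lowest), 6.33 (median) and 6.83 (highest) in Cre/+ TAM, 5.71, 5.97 and 6.69 in wt TAM, and 6.20, 6.52 and 6.10 in the 3 Cre/+ OIL mice. The groups overlapped, with wt TAM mouse 5 (6.69) above all but 1 Cre/+ TAM mouse. Its log2 fold change against wt TAM was 0.34 ± 0.16 (SE), with a limma adjusted p of 0.838. Its 8 probes, in cluster 17325719 (chromosome 16, 42955560 to 42956079), lie at a pseudogene copy, as described below. Ndufb8, an accessory subunit of the membrane arm often used on blots to follow complex I, was 6.43 ± 0.11 in Cre/+ TAM, 6.25 ± 0.25 in wt TAM and 6.42 ± 0.16 in Cre/+ OIL (SD, n = 6, 6 and 3), and did not pass (limma adjusted p = 0.886). Its log2 fold change of 0.19 was 0.10 without wt TAM mouse 2. Of the catalytic core, Ndufs1, the largest iron-sulphur subunit, had a log2 fold change of 0.11, which was 0.02 without wt TAM mouse 4 (5.65), and it was 0.01 for Ndufv1 (the NADH-binding subunit). Ndufv1 averaged 6.99 ± 0.12 in Cre/+ TAM and 6.98 ± 0.11 in wt TAM (SD, n = 6 each). On the lower side, Ndufa5, an accessory subunit, had a log2 fold change of -0.17, and Ndufab1, the mitochondrial acyl carrier protein, and Ndufs6, a zinc-binding subunit, had -0.15 each. Ndufa11, a membrane subunit, had 0.14, and 0.02 without wt TAM mouse 2.

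Complex II, the succinate dehydrogenase that also works in the tricarboxylic acid cycle, is wholly encoded in the nucleus. Sdha, its flavoprotein, had a log2 signal of 7.86, 7.98 and 8.29 (lowest, median, highest) in Cre/+ TAM, 7.80, 8.03 and 8.18 in wt TAM, and 8.04, 8.25 and 7.96 in the 3 Cre/+ OIL mice. These ranges nearly coincided, and the log2 fold change against wt TAM was -0.01, with a 95% interval from -0.22 to 0.20. Sdhb, the iron-sulphur subunit, and Sdhd, a membrane anchor, each had -0.02. Sdhc, the other anchor, had 0.13 ± 0.19 (SE), and its values ran from 6.53 to 6.95 in Cre/+ TAM and from 5.65 to 7.12 in wt TAM. Its lowest value was that of wt TAM mouse 2, an array with high neutrophil markers. Without that array the log2 fold change of Sdhc was -0.05. Cre/+ OIL mouse 3, another such array, had 6.66, the lowest of its group.

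Complex III passes electrons to cytochrome c. Uqcrfs1, its Rieske iron-sulphur protein, had a log2 signal of 5.44, 5.49 and 5.63 (lowest, median, highest) in Cre/+ TAM, 5.47, 5.69 and 6.21 in wt TAM, and 5.64, 5.82 and 5.53 in the 3 Cre/+ OIL mice. Of the Cre/+ TAM mice, 3 lay below the lowest wt TAM mouse and the others in the lower part of the wt TAM range, which wt TAM mouse 4 (6.21) extended upwards. The log2 fold change was -0.24 ± 0.11 (SE) against wt TAM, which did not pass (limma adjusted p = 0.85), and it was -0.15 without wt TAM mouse 4. Uqcrb, which helps bind ubiquinone, had -0.26, and the core proteins Uqcrc1 and Uqcrc2 had 0.15 and -0.07. Uqcrq, a small subunit, and Uqcrh, the hinge protein, had 0.19 and 0.06.

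Complex IV is cytochrome c oxidase. Cox4i1, its regulatory subunit and the ubiquitous isoform, had a log2 signal of 8.90, 9.07 and 9.18 (lowest, median, highest) in Cre/+ TAM, 8.01, 8.95 and 8.97 in wt TAM, and 8.78, 8.91 and 8.97 in the 3 Cre/+ OIL mice. All but 1 Cre/+ TAM mouse were above every wt TAM mouse, and wt TAM mouse 2 stood far below the rest. The log2 fold change was 0.31 ± 0.14 (SE), which did not pass (limma adjusted p = 0.836). Without wt TAM mouse 2 it was 0.16. The gene lies on chromosome 8 (120668290 to 120674209, deposited annotation). Cox6a1 and Cox6b1, ubiquitous subunits, had 0.21 and 0.20, and without wt TAM mouse 2 they had 0.04 and 0.08. Cox7a2 had 0.08. Cox5a and Cox8a had 0.0077 and 0.0028, Ndufa4, which was first assigned to complex I, had -0.0091, and Cox5b had -0.00018. Cox6c and Cox7b had -0.07 and -0.10.

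Complex V is the ATP synthase. Atp5g2 encodes an isoform of subunit c, which forms the proton-driven ring. Its log2 signal was 8.99, 9.17 and 9.28 (lowest, median, highest) in Cre/+ TAM, 7.44, 8.88 and 9.16 in wt TAM, and 8.48, 8.70 and 9.11 in the 3 Cre/+ OIL mice. The lowest value was again that of wt TAM mouse 2. The log2 fold change of 0.41 ± 0.22 (SE), with a limma adjusted p of 0.876, was 0.15 without that array. The other genes of subunit c had 0.08 (Atp5g1) and -0.02 (Atp5g3). The catalytic α and β subunits of the F1 head had 0.13 (Atp5a1) and 0.06 (Atp5b), and Atp5c1, the central stalk, had -0.15. Atp5h, of the peripheral stalk, had 0.25, and 0.15 without wt TAM mouse 2, and the membrane subunits Atp5j2 and Atp5l had -0.15 and -0.05.

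Among the assembly and accessory factors, Ndufaf5 and Ndufaf3, which help build complex I, had -0.16 and 0.07, and Sdhaf1, which helps Sdhb receive its iron-sulphur clusters, had -0.13. Cox7a2l, a factor known from work on supercomplexes of complexes III and IV, had 0.07. Of the 8 tissue isoforms, all but Cox6a2 and Cox7a1, known from heart and skeletal muscle, had mean signals at or below 4.84, the 95th percentile of 1126 olfactory receptor clusters, and so did Atp5g1. That is a rough guide to background, chosen after the values were seen, since signals of different probe sets are not on a common scale. Cox8b, another muscle isoform, varied most of all members (SD 0.50 over 15 arrays), with 3.34 in Cre/+ OIL mouse 1 and 5.77 in wt TAM mouse 4. Cox8c, a testis isoform, varied least (SD 0.06). Their log2 fold changes against wt TAM were -0.31 and 2.2e-06, beside -0.14 for Cox4i2, -0.12 for Cox7a1, -0.18 for Cox7b2, -0.18 for Ndufa4l2, 0.03 for Cox6a2 and 0.03 for Cox6b2. Over all members, mean signals ran from 1.83 (Cox7b2) to 10.8 (Atp5l).

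**Figure D2:**
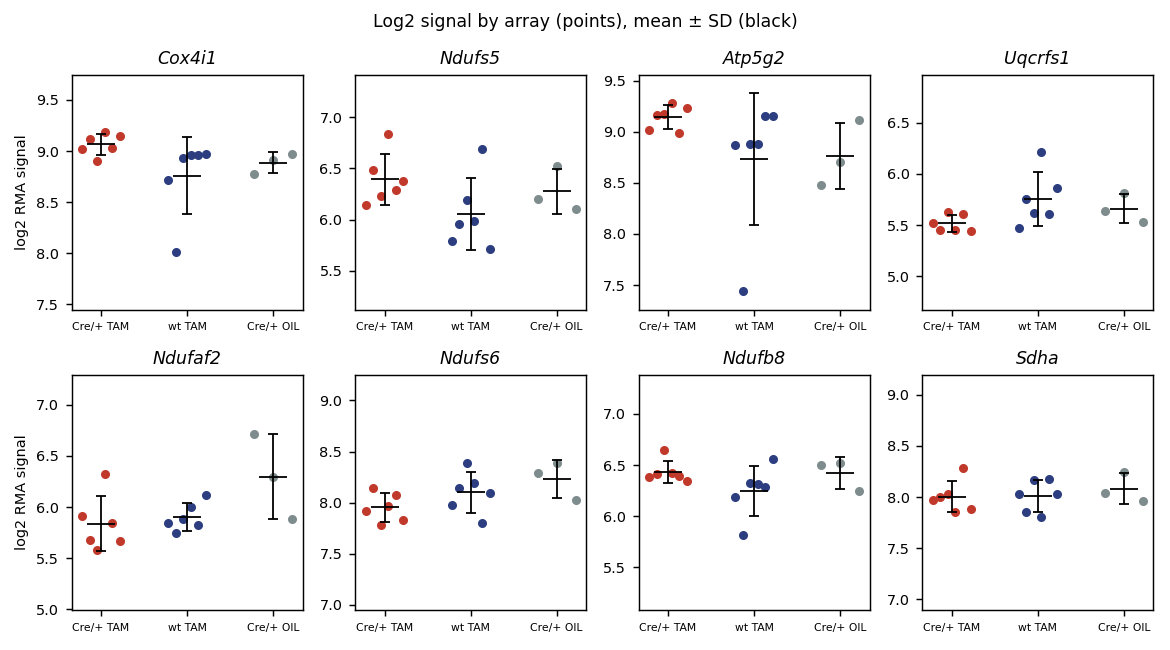
Log2 RMA signal (vertical axis, each panel 2.3 units high) of 8 respiratory chain genes in each mouse of Cre/+ TAM, wt TAM and Cre/+ OIL (points), with the mean and SD in black. The groups overlap in every panel, and 1 wt TAM mouse lies far below the others for Cox4i1 (8.01) and Atp5g2 (7.44).

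Cre/+ TAM was also set against Cre/+ OIL, mice of the same genotype without tamoxifen. The members lay slightly lower, with a median log2 fold change of -0.08, beside -0.0048 over all clusters, and 64 of 93 were below 0. These genes share arrays and may move together, so the count is a description. At a limma adjusted p under 0.05, 0 of 93 members and 0% of all clusters were called, and the lowest adjusted p of a member was 0.778. At an unadjusted p under 0.05, 0 members were higher, beside 2.93% of all clusters, and 2 were lower, beside 2.91%. Without Cre/+ OIL mouse 3, whose neutrophil markers were high, 2 were higher, beside 4.49% of all clusters, and 16 were lower, beside 5.52%. None passed after adjustment. No member had all its Cre/+ TAM values above or all below those of Cre/+ OIL, beside 1.44% and 1.46% of all clusters. The confidence intervals of 92 of 93 members lay within a 2-fold change.

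By complex, the median was -0.12 for complex I (30 of 36 members below 0), -0.08 for complex II, -0.11 for complex III, 0.0045 for complex IV, -0.02 for complex V and -0.15 for the assembly and accessory factors (10 of 12 below 0). The median of all members depended on which Cre/+ OIL mice were used. It was 0.06 without the arrays that hold neg in their title, which leaves only Cre/+ OIL mouse 3 with its neutrophil markers at 6.11, and -0.17 without that mouse. Ndufaf2, an assembly factor of complex I, had a log2 signal of 5.58, 5.76 and 6.33 (lowest, median, highest) in Cre/+ TAM, 5.74, 5.86 and 6.12 in wt TAM, and 6.72, 6.30 and 5.88 in the 3 Cre/+ OIL mice. Cre/+ OIL mouse 1 was above all mice of the other groups, and Cre/+ OIL mouse 3 lay inside the Cre/+ TAM range. The log2 fold change of Ndufaf2 against Cre/+ OIL was -0.46 ± 0.17 (SE), with a limma adjusted p of 0.778, and -0.05 without the neg arrays. Ndufs6 had 7.78, 7.94 and 8.15 in Cre/+ TAM, 7.80, 8.12 and 8.39 in wt TAM, and 8.29, 8.39 and 8.03 in the 3 Cre/+ OIL mice. Its log2 fold change was -0.28 ± 0.13 (SE), with a limma adjusted p of 0.849, and -0.08 without the neg arrays. Other members named by the lowest p of their complex were Ndufa11 (0.17), Sdhd (0.0024), Sdhb (-0.15), Uqcrq (0.21), Uqcrh (-0.18), Cox5b (0.18), Cox6c (-0.18), Atp5g1 (0.22), Atp5l (-0.14) and Ndufaf3 (0.04), and none passed. Without Cre/+ OIL mouse 1, the sign turned for Uqcrq (-0.11) and Cox5b (-0.02).

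The controls were set against each other as well, wt TAM over Cre/+ OIL. The median of the members was -0.09, beside 0.0076 over all clusters, and 71 of 93 were below 0. At a limma adjusted p under 0.05, 0 of 93 members and 0% of all clusters were called, with a lowest adjusted p of 0.933 among members. At an unadjusted p under 0.05, 0 members were higher, beside 2.98% of all clusters, and 3 were lower, beside 2.24%. These were Ndufaf2 (-0.40), Ndufa7 (-0.35) and Ndufb4 (-0.41), the last 2 of them accessory subunits of complex I named after their values were seen. Without Cre/+ OIL mouse 3, 2 were higher, beside 4.47% of all clusters, and 12 were lower, beside 4.4%, with a median of -0.17. Without the neg arrays the median was 0.02. Both comparisons with Cre/+ OIL share its 3 arrays.

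The members also varied together from mouse to mouse. Each gene was centred on its own mean over the 15 arrays, and the median deviation of the 93 members was taken per array. In Cre/+ TAM mice 1 to 6 it was -0.07, 0.01, -0.11, 0.06, 0.05 and 0.01. In wt TAM mice 1 to 6 it was -0.19, -0.12, 0.01, 0.14, -0.05 and 0.19, and in Cre/+ OIL mice 1 to 3 it was 0.16, 0.14 and -0.08. The Cre/+ TAM mice lay inside the span of the wt TAM mice, and the Cre/+ OIL mice overlapped both. In wt TAM mouse 6, 81 of 93 members were above their own mean, and in Cre/+ OIL mouse 2, 78 were. In wt TAM mouse 1, 14 were, and in Cre/+ TAM mouse 3, 17 were.

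**Figure D3:**
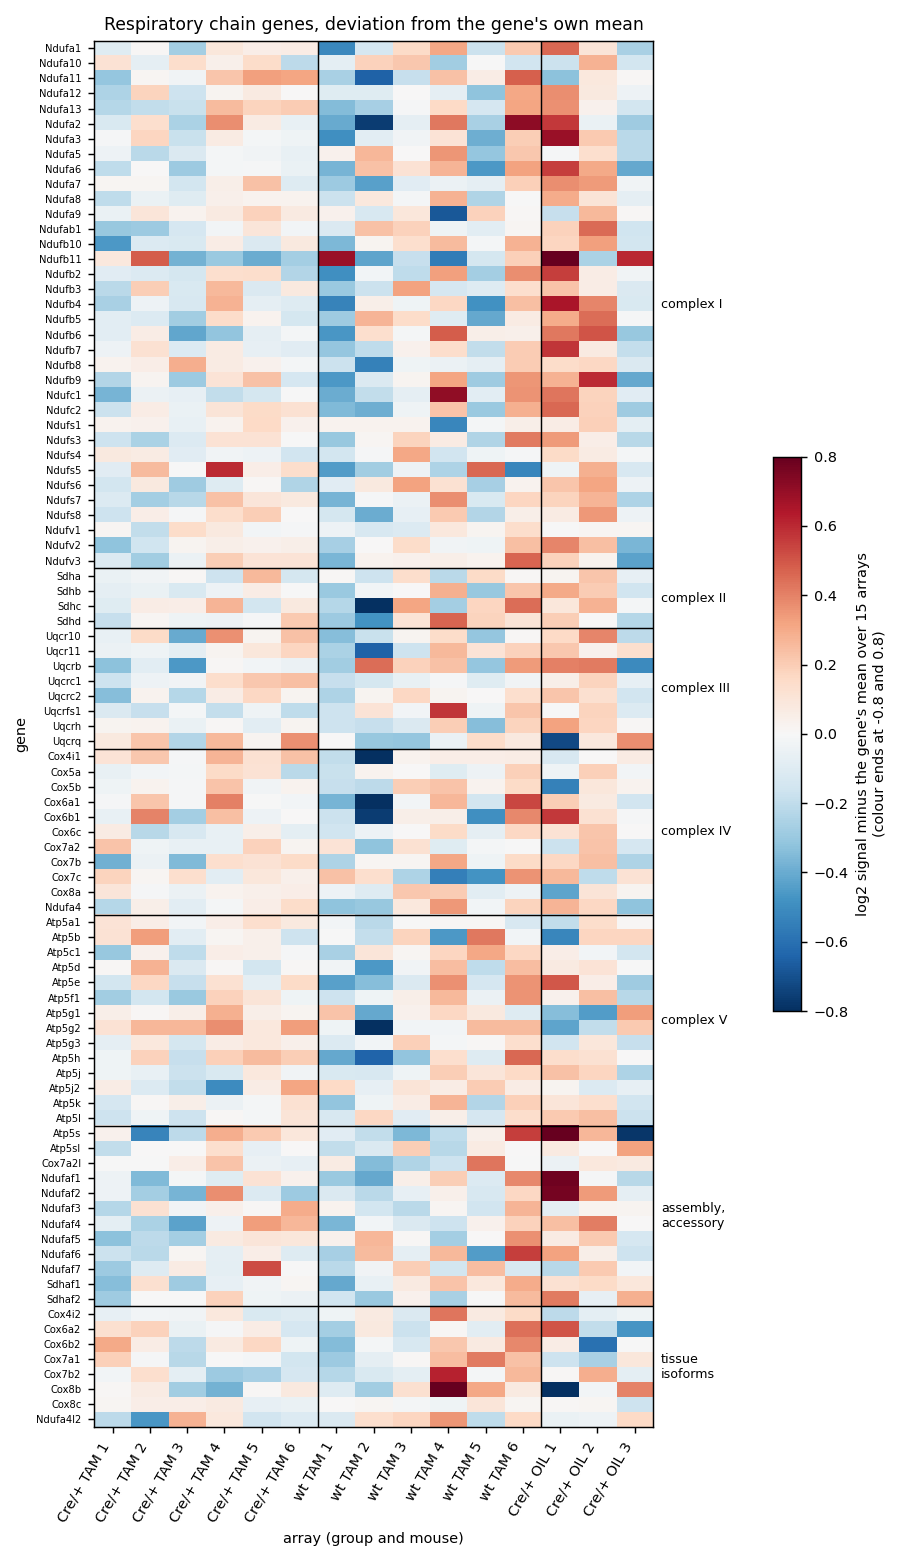
Deviation of 92 of the 93 respiratory chain genes (rows, by complex) from their own means over the 15 arrays, in log2 units from blue (lower) to red (higher), in the Cre/+ TAM, wt TAM and Cre/+ OIL mice (columns). Whole columns lean one way, red in wt TAM mouse 6 and Cre/+ OIL mice 1 and 2 and blue in wt TAM mouse 1 and Cre/+ TAM mouse 3, with no shared colour over the Cre/+ TAM columns.

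Across the arrays the median of the members spanned 0.38, beside 0.06 for all clusters. The 0.06 is kept small by RMA, which aligns the arrays, so it is no measure of how other gene sets vary. The mitochondrial ribosomal protein genes (75 genes) spanned 0.34 and the cytosolic ribosomal protein genes (86 genes) 0.22. Complex I spanned most of the 5 complexes, 0.58, with -0.29 in wt TAM mouse 1 and 0.29 in Cre/+ OIL mouse 1. Complex V spanned 0.32. The mitochondrial ribosomal genes were likewise high in wt TAM mouse 6 (0.15), Cre/+ OIL mouse 1 (0.19) and Cre/+ OIL mouse 2 (0.17) and low in Cre/+ TAM mouse 1 (-0.16) and wt TAM mouse 1 (-0.11). In wt TAM mouse 4, where the members were high, they stood at -0.05. The 39 proteasome genes, another housekeeping set, spanned 0.29. They had 0.07 in wt TAM mouse 6 and 0.08 and 0.16 in Cre/+ OIL mice 1 and 2.

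**Figure D4:**
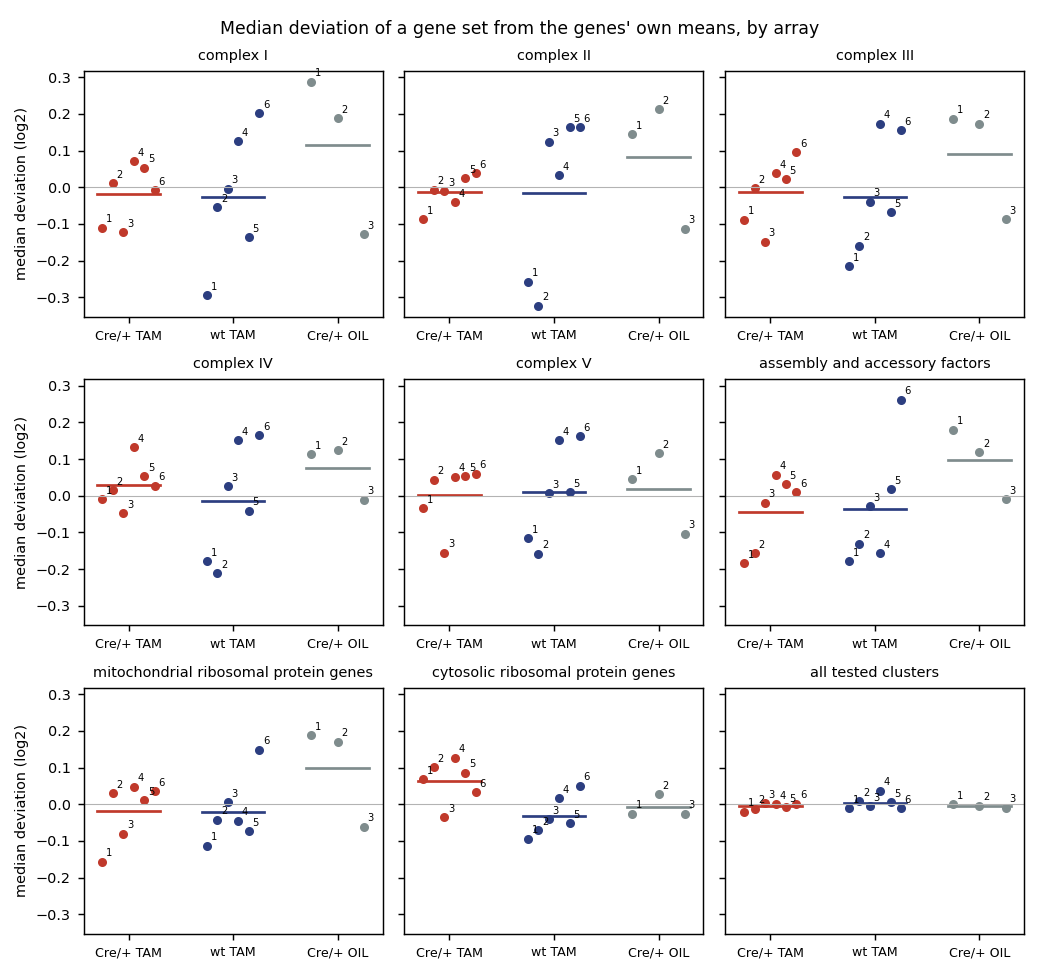
Median deviation from the genes' own means (vertical axis, log2 units) per array for complexes I to V, assembly factors, mitochondrial and cytosolic ribosomal protein genes and all clusters, with mouse numbers beside the points and the group mean as a line. The wt TAM mice spread more widely than the Cre/+ TAM mice for complexes I to V. All clusters, which RMA aligns between arrays, stay within -0.02 and 0.04.

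The animal numbers in the labels fall into 2 ranges, and all Cre/+ OIL mice have numbers of the lower one. In the lower range the members' median deviation was -0.07 and 0.01 in 2 Cre/+ TAM mice, and -0.19, -0.12 and 0.01 in 3 wt TAM mice. In the upper range it ran from -0.11 to 0.06 in 4 Cre/+ TAM mice and from -0.05 to 0.19 in 3 wt TAM mice. The median log2 fold change of Cre/+ TAM against wt TAM was 0.03 within the lower range, -0.05 within the upper range and -0.0024 with the range as a block. The difference between the ranges was tested in 1 limma fit, and 0 of 93 members passed at an adjusted p under 0.05, beside 0.0585% of all clusters. The lowest adjusted p of a member there was 0.513, for Cox7a1.

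For 9 members the kept cluster did not lie at the gene itself but at an annotated pseudogene, judged against the RefSeq genes of GRCm38.p6. They are Atp5g2, Atp5h, Cox5b, Cox6c, Cox7b, Ndufa11, Ndufs5, Ndufs6 and Uqcrb. Probes there may read the gene, its copy or both, so these values are uncertain. A second cluster at the gene itself was on the array for 6 of the 9, where the brighter one had been kept, and none was matched for Cox7b, Ndufs5 and Uqcrb. For Atp5g2 the cluster at the gene (chromosome 15) gave a log2 fold change of 0.47 ± 0.22 against wt TAM, beside 0.41 ± 0.22 at the copy on chromosome 17. For Ndufs6 it was -0.30 ± 0.15 at the gene (chromosome 13) and -0.15 ± 0.11 at the copy on chromosome 7. For Atp5h the sign differed, with -0.14 ± 0.23 at the gene (chromosome 11) and 0.25 ± 0.15 at the copy on chromosome 15 (errors are SE). Cox5b, Cox6c and Ndufa11 gave -0.08, -0.20 and 0.10 at the gene. Some clusters at the gene were dim. Their mean signal was 4.76 for Ndufs6, below the background guide of 4.84, and 4.89 for both Atp5h and Ndufa11, just above it. The kept clusters of Ndufs6, Atp5h and Ndufa11 had 8.07, 7.95 and 7.38. The values at the gene, signs included, are therefore uncertain for these genes. Over the 84 members whose cluster lies at the gene, the median against wt TAM was 0.01. At an unadjusted p under 0.05, 1 of them was higher (Cox4i1), beside 2.92% of all clusters, and 1 lower (Uqcrfs1), beside 2.91%. With the cluster at the gene also used for the 6 genes above, 90 members were measured. Of these, 2 were higher (Atp5g2 and Cox4i1), beside 948 of 32468 clusters, and 1 was lower (Uqcrfs1), beside 946. None passed after adjustment.

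**Figure D5:**
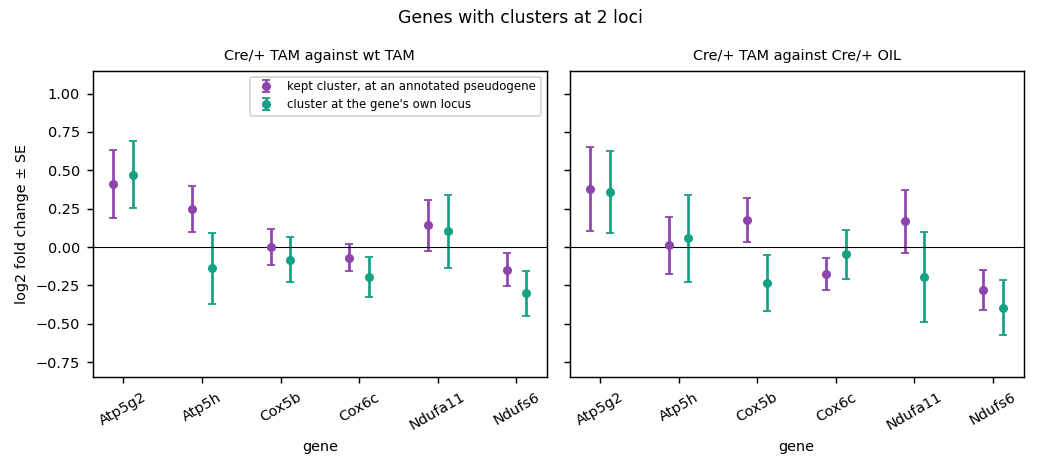
Log2 fold change ± SE (vertical axis) of 6 genes from the kept cluster at an annotated pseudogene (purple) and from the cluster at the gene itself (green), for Cre/+ TAM against wt TAM (left) and against Cre/+ OIL (right). Atp5g2 and Ndufs6 keep their sign in both, while Atp5h changes sign against wt TAM (0.25 and -0.14). Cox5b (0.18 and -0.23) and Ndufa11 (0.17 and -0.19) change sign against Cre/+ OIL. The clusters at the gene are dim for Ndufs6 (mean signal 4.76), Atp5h and Ndufa11 (4.89 each).

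Other nuclear genes of mitochondria were read from 4 lists with 83 genes measured, and none passed in any of the 3 comparisons. Of 39 genes for cytochrome c, other carriers and assembly, Cox10, which makes the haem of cytochrome c oxidase, had the lowest p. Its log2 signal was 5.53, 5.61 and 5.79 (lowest, median, highest) in Cre/+ TAM, 5.15, 5.26 and 5.53 in wt TAM, and 5.05, 5.32 and 5.33 in Cre/+ OIL. In 5 of 6 Cre/+ TAM mice it was above every wt TAM mouse. The log2 fold change was 0.34 ± 0.09 (SE) against wt TAM (limma adjusted p = 0.35) and 0.40 ± 0.11 (SE) against Cre/+ OIL (limma adjusted p = 0.62). Lyrm7, which helps mature complex III, had -0.40 against wt TAM, Foxred1, a complex I factor, -0.28 against Cre/+ OIL, and between wt TAM and Cre/+ OIL the assembly factors Ecsit and Surf1 had 0.13 and -0.43.

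Of 14 regulators of mitochondrial biogenesis, the coactivators Pprc1 and Ppargc1a had log2 fold changes of 0.21 and -0.27 against wt TAM. Ppargc1a was dim, at 2.22 to 2.72 in Cre/+ TAM and 2.48 to 3.08 in wt TAM. The list's median was -0.01. Tfb2m, a mitochondrial transcription factor, and Gabpb1, a subunit of the factor GABP, had 0.28 and -0.24 against Cre/+ OIL, and between wt TAM and Cre/+ OIL Tfb2m had 0.51 and Pprc1 -0.26. Of 12 genes of coenzyme Q synthesis (median -0.02), Coq4 and Coq2 had 0.19 and -0.15 against wt TAM, Coq9 and Coq5 0.03 and -0.24 against Cre/+ OIL, and Coq2 and Coq5 0.12 and -0.28 between the controls. Of 18 genes of the tricarboxylic acid cycle (median 0.05), the isocitrate dehydrogenase genes Idh3b and Idh2 had 0.15 and -0.20 against wt TAM. Idh3b and Suclg1, of succinate-CoA ligase, had 0.16 and -0.23 against Cre/+ OIL, and Ogdh, of the oxoglutarate dehydrogenase complex, and Suclg1 had 0.15 and -0.27 between the controls.

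The promoters of the members were also read for the short letters of factors known to regulate respiratory genes. RefSeq windows of GRCm38.p6 from 250 bases before to 50 bases after the gene start were given for 77 of the 93 genes. The core of NRF1 (GCATGCGC) was found on either strand in 12 of the 77, 15.6%, beside 3.05% of 27025 genes. The core of ETS factors such as GABP (CCGGAAG) was found in 19, 24.7%, beside 9.93%, and that of YY1 (AAGATGGC) in 11, 14.3%, beside 3.19%. These matches are descriptions and not sites. The 27025 genes were not matched to the members in signal or base content. Whether the higher shares are particular to the members was not tested. The ribosomal and proteasome genes were not read as sets of their own. Whether the letters bear on the shared lean of the members within a mouse was not tested. For Atp5l (chr9:44920936-44920992, minus strand) and Cox6a1 (chr5:115348959-115349132, minus strand), both the NRF1 and the ETS core lie before the gene start, and they are shown with these cores in capitals.
Atp5l: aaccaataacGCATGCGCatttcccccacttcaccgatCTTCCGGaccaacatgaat
Cox6a1: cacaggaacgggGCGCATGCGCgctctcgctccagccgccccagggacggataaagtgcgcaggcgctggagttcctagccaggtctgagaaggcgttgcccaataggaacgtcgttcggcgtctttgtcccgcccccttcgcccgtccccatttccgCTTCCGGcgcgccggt

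The YY1 letters lay close to the gene start, since 9 of 11 matches, each counted once by its position, began 23 to 39 bases after a gene start, and 10 of 11 ran on the strand of the gene. They hold ATG, so they can overlap a start codon, which was not checked. Of the 11 genes, 7 belong to complex I, which has 32 genes with a window (21.9%). Complex V had the core in 3 of 13 (23.1%) and the assembly and accessory factors in 1 of 11 (9.09%). From complex I, 3 genes are shown with the core in capitals, Ndufb8 (chr19:44555393-44555422, minus strand) and Ndufs6 (chr13:73328433-73328462, minus strand), described above, and Ndufs4 (chr13:114388045-114388074, minus strand), an accessory subunit chosen for its match.
Ndufb8: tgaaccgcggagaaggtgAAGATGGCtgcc
Ndufs6: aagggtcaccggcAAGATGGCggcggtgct
Ndufs4: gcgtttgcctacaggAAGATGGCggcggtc
Against wt TAM these 3 genes had log2 fold changes of 0.19, -0.15 and -0.02, and Atp5l and Cox6a1 had -0.05 and 0.21. The Ndufs6 value is from the cluster at the copy on chromosome 7. The dim cluster at the gene whose promoter is shown (mean signal 4.76) gave -0.30. None passed the test.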

How the data were processed

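RNA of sorted microglia was amplified, labelled and hybridised to Affymetrix Mouse Gene 2.0 ST arrays by the authors, who deposited RMA signals on a log2 scale. RMA aligns the arrays by quantiles, so a shift common to all genes cannot be seen. Its software and the genome build are not given in the sources used here. Further deposited tables hold the authors' own fold changes and p-values and were left aside. Arrays have no read depth, and precision is limited by how many there are.

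A linear model with 1 mean for each group was fitted by limma 3.58.1 (R 4.3.3; lmFit, eBayes) to the 15 arrays and all 32471 clusters that carry a symbol. The 3 contrasts had two-sided tests, and a gene was called where the Benjamini-Hochberg adjusted p over these clusters was under 0.05. The fit was tested on simulated data. Of the members, 1 counts in the summaries but is not reported here by itself. Groups came from the sample labels, and mouse numbers only name the mice. The members and lists were chosen with earlier results of these data known.

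Named were members past the test, the 2 of lowest unadjusted p in each direction per complex and among assembly factors against wt TAM (1 against Cre/+ OIL), a fixed list of core subunits and isoforms, the members with extreme signal or SD, and, per list, the gene of lowest p in each direction. As alternatives, arrays were centred on their medians or quantile normalized, and other settings were the second deposited log2 table, other filters on clusters, the mean of all clusters of a gene, other eBayes settings, array weights, only the arrays of 2 groups, both controls together, the neg arrays left out, the range of animal numbers, each array left out, and the methods' unpaired test. Leaving out Cre/+ TAM mice 1 and 2, the clusters at the gene itself and the test between the ranges were added after seeing the data.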

Additional observations from a re-analysis of the deposited data

Results flagged for a closer look

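In groups of 6 mice, each named member and each median per complex was read for a mouse far from the rest, by the gap to its nearest neighbour over the group's range. Of 118 such readings 6 stood out, and chance gives about 1 in 20. In Cre/+ TAM, Atp5g1 was 4.70 in mouse 4 (others 4.43 to 4.46), Cox5b was 7.75 in mouse 4 (others 7.49 to 7.55) and Ndufb8 was 6.65 in mouse 3 (others 6.34 to 6.42). In wt TAM, Atp5g2 was 7.44 (others 8.87 to 9.16) and Cox4i1 was 8.01 (others 8.71 to 8.97), both in mouse 2. The neutrophil markers of that mouse averaged 5.59. In Cre/+ OIL mouse 3, where they averaged 6.11, Atp5g2 was 9.11 and Cox4i1 8.97, each the highest of its group. Whether neutrophils bear on these values was not tested. Ndufs1 was 5.65 in wt TAM mouse 4 (others 6.16 to 6.22).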

How the results depend on the processing

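No member reached a limma adjusted p under 0.05 in 32 alternatives for Cre/+ TAM against wt TAM or in 30 for each comparison with Cre/+ OIL, and the lowest was 0.188 (Ndufaf2, Cre/+ TAM against Cre/+ OIL without Cre/+ OIL mouse 3). The methods' unpaired test called 0 members after adjustment. The median log2 fold change of Cre/+ TAM against wt TAM ran from -0.05 to 0.05. Against Cre/+ OIL it was -0.19 with the range of animal numbers as a block and 0.061 without the neg arrays, and with 1 array left out it ran from -0.17 to -0.04. For wt TAM against Cre/+ OIL it ran from -0.17 to 0.02. No paired analysis was possible because the mouse numbers follow accession order and the columns carry no pairing. Differences well under 2-fold were not resolved for single genes.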
